A study of Mus musculus with 18 samples.

Results

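The immediate early genes described here are 10 genes, Fos, Fosb, Jun, Junb, Egr1, Atf3, Myc, Hbegf, Ier3 and Klf10, taken as every probe set annotated to one of these symbols alone. They gave 12 of the 22626 probe sets tested, and 10 of the 12393 genes named by at least 1 probe set, because Jun and Hbegf each had a pair of probe sets. Signals were measured on 18 Affymetrix mouse GeneChip arrays, 1 for each soleus, the slow postural calf muscle, or extensor digitorum longus (EDL), a fast muscle of the lower leg. The male adult mice, given as C57BL/N6 in the study design and as C57/BL6 in the sample labels, spent 30 days in orbit on the Bion M1 satellite (Bion Flown, BF), kept on the ground in the flight habitat (Bion Ground, BG), or kept in a standard animal facility (Flight Control, FC), with 3 arrays per group and muscle. BF and BG mice ate paste food and FC mice ate standard chow, and BF mice were transported after landing before their muscles were removed, so that flight, landing and transport cannot be told apart in BF. All values are log2 signals after robust multichip averaging, so that a difference of 1 is a 2-fold difference, and the signal of one probe set is not set against that of another.

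Immediate early genes are genes whose transcription starts within minutes of a stimulus, such as a growth factor, stretch, contraction or cell stress, without the need for new protein. Fos, Fosb, Jun and Junb encode subunits of AP-1, a dimeric transcription factor, and Atf3 encodes a related leucine zipper protein induced by many stresses. Egr1 and Klf10 encode zinc finger transcription factors, of which Klf10 is induced by TGF-β, and Myc encodes a transcription factor that drives ribosome production and growth. Hbegf encodes a membrane-anchored ligand of the EGF receptor that is released by cleavage, and Ier3 encodes a short-lived regulator of survival. In skeletal muscle these transcripts are known to follow contraction, loading, injury and the handling of the tissue.

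The soleus of flown mice carried higher levels of most of these transcripts than the soleus of either ground group. In soleus BF vs. BG, 6 of the 10 genes rose more than 2-fold at an adjusted p under 0.05 (limma, Benjamini-Hochberg over all probe sets), namely Atf3, Hbegf, Egr1, Fos, Myc and Klf10, and 0 fell. Over all 12393 genes, 1.96% rose and 1.54% fell by the same rule. The median log2 difference was 1.78 over the 10 genes and 0.03 over all genes. The 10 genes were chosen with earlier results of these data known. Their counts and medians beside all genes, here and below, are therefore descriptions and no independent support. The size of the count rested on single BF arrays. It was 4 without soleus BF replicate 2, the array with the highest signal for each of the 10 genes, and 9 without replicate 3, the lowest BF array for each of them. Fos, Egr1, Myc and Hbegf were called in both cases.

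**Figure D1:**
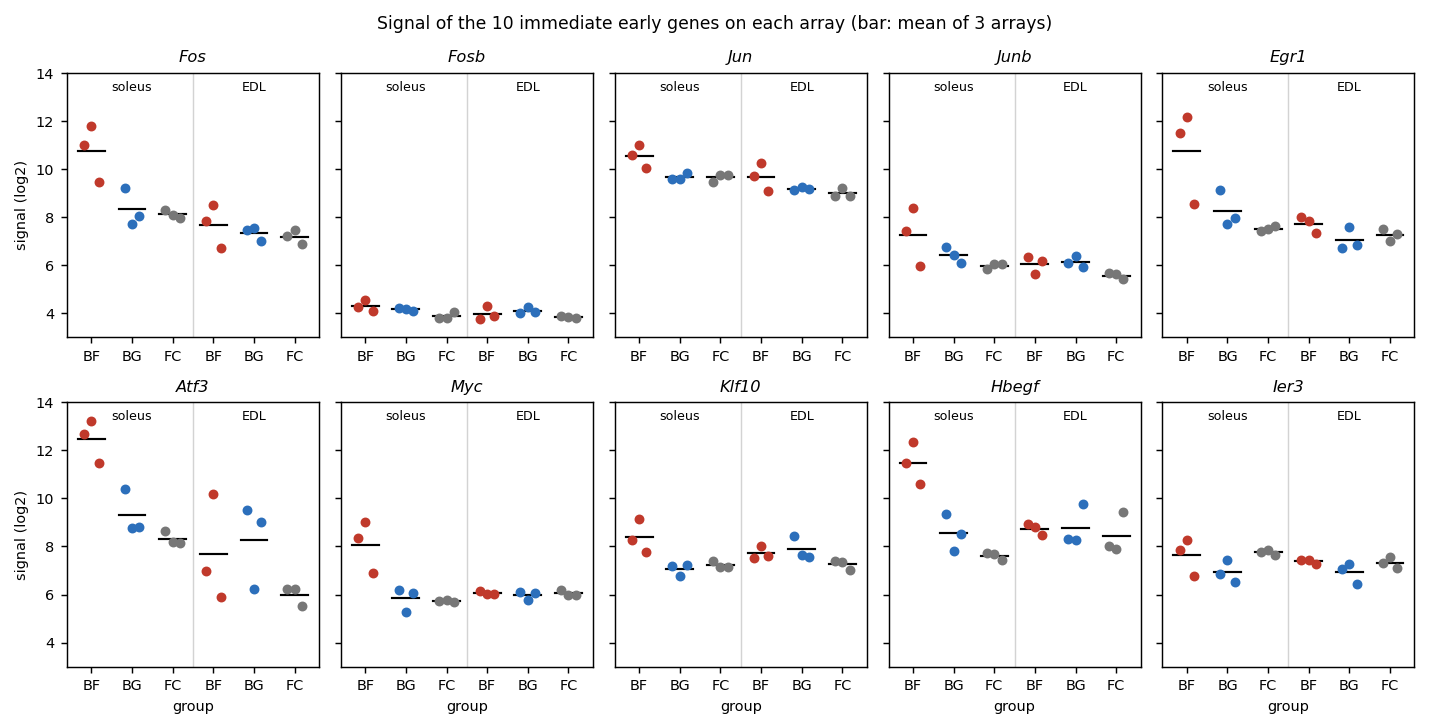
Log2 signal of each gene (probe set with the highest mean signal) on each of the 18 arrays, by muscle and group, with replicates 1 to 3 from left to right and a bar at the mean of 3 arrays. In soleus the 3 BF points of Atf3, Hbegf, Fos and Myc lie above all BG and FC points, and in EDL the groups of every gene overlap in BF vs. BG.

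Among the AP-1 subunits, Fos stood at 11.01, 11.78 and 9.46 on the BF soleus arrays (replicates 1 to 3), at 9.24, 7.73 and 8.07 in BG, and at 8.31, 8.08 and 7.97 in FC. All 3 BF arrays were above all 6 ground arrays, although BF replicate 3 was only slightly above BG replicate 1. The log2 difference was 2.41 ± 0.50 (SE) in BF vs. BG, a 5.30-fold rise (adjusted p = 0.00283), and 2.63 ± 0.50 in BF vs. FC (adjusted p = 0.00113). Jun, the main partner of Fos in AP-1, stood at 10.58, 11.01 and 10.05 in BF, at 9.60, 9.57 and 9.83 in BG, and at 9.46, 9.78 and 9.75 in FC. The BF arrays again lay above all others, and Jun rose by 0.88 ± 0.24 in BF vs. BG (adjusted p = 0.0159) and by 0.89 ± 0.24 in BF vs. FC (adjusted p = 0.0134), in both cases less than 2-fold. The second Jun probe set differed by 0.57 ± 0.13 in BF vs. BG (adjusted p = 0.00497) and by 0.35 ± 0.13 in BF vs. FC, where its groups overlapped (adjusted p = 0.0568).

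Junb and Fosb, the other AP-1 subunits, differed less. Junb stood at 7.44, 8.38 and 5.96 in BF, at 6.77, 6.42 and 6.12 in BG, and at 5.83, 6.07 and 6.05 in FC. BF replicate 3 lay below every BG array, and the difference of 0.82 ± 0.38 in BF vs. BG did not pass (adjusted p = 0.131). In BF vs. FC Junb rose by 1.27 ± 0.38 (adjusted p = 0.0231), although the groups overlapped, and this call was lost without soleus BF replicate 1 or 2 or any 1 of the FC replicates, with the soleus arrays alone, and by ordinary contrasts without moderation. The adjusted p reached 0.117 without BF replicate 2, where the difference was 0.71. Fosb was dim, with a highest signal of 4.55 on any array in a table whose values ran from 2.11 to 14.53. Its difference was 0.13 ± 0.14 in BF vs. BG (adjusted p = 0.516) with a 95% confidence interval of -0.16 to 0.43, and 0.42 ± 0.14 in BF vs. FC (adjusted p = 0.0382), which is under 2-fold.

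The promoters of Fos, Fosb, Jun and Atf3 are shown because the 4 proteins can join in AP-1 or related dimers while their transcripts behaved differently in flown soleus. Each window runs 5′ to 3′ from 250 bases before to 50 bases after the RefSeq start (GRCm38.p6), and capitals mark matches, on either strand, to the motifs named after the sequences. The windows are chr12:85473640-85473939 (plus strand) for Fos, chr7:19309996-19310295 (minus strand) for Fosb, chr4:95052173-95052472 (minus strand) for Jun and chr1:191183284-191183583 (minus strand) for Atf3.
Fos: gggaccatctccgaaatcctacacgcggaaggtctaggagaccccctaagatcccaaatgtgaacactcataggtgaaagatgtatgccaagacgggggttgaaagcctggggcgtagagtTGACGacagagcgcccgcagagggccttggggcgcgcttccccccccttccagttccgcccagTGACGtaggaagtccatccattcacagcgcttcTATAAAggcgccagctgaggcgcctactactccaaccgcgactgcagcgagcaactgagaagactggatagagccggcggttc
Fosb: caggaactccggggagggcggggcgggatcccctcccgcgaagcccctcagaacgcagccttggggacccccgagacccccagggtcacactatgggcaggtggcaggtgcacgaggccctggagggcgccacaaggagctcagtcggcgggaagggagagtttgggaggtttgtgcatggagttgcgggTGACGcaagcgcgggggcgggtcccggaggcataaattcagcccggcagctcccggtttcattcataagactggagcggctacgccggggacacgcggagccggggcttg
Jun: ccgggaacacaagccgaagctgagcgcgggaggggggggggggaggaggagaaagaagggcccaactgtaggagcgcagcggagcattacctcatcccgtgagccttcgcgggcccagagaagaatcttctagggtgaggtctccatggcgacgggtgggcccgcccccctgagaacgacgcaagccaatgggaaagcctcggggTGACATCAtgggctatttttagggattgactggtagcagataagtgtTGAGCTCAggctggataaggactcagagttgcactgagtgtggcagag
Atf3: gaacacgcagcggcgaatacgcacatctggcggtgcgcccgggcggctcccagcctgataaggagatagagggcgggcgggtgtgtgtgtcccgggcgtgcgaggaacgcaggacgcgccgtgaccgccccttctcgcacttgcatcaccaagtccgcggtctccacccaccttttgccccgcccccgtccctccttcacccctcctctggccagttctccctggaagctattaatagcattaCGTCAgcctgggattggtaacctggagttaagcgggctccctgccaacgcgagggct

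Windows were available for 6 of the 10 genes, Fos, Fosb, Jun, Junb, Atf3 and Ier3. The core TGACG of the cAMP response element (CRE) was matched at -129 to -125 and at -66 to -62 in Fos, at -60 to -56 in Fosb, at -106 to -102 in Junb and, on the opposite strand, at -7 to -3 in Atf3, counting the first base after the 250 upstream bases as +1. This core occurs in 20.8% of the 32851 RefSeq windows of the same length. Jun held the CRE-like sequence TGANNTCA at -45 to -38 and at 3 to 10, a pattern found in 14.1% of windows. The TATA box letters TATAAA were matched at -33 to -28 in Fos and at 1 to 6 in Junb, and occur in 13.6% of windows. The full CRE TGACGTCA, which contains the core and is itself a CRE-like sequence, the AP-1 site TGANTCA and the CArG box, searched on both strands, were matched in none of the 6 windows and occur in 1.79%, 7.81% and 1.63% of all windows. Fos and Fosb each carried a core at nearly the same distance from the start, and Fos carried another at -129 to -125. The relation of these cores to the transcript differences was not tested, and the Fosb probe set was dim. The matches are descriptions of letters and not of bound sites. Sites more than 250 bases upstream were not searched, so a motif without a match is missing from the windows alone.

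Atf3, whose protein pairs with Jun proteins and is induced by the integrated stress response, had the largest difference of the 10 genes. Its signal was 12.68, 13.21 and 11.49 on the BF soleus arrays, 10.39, 8.75 and 8.81 in BG, and 8.66, 8.19 and 8.14 in FC. The BF arrays did not overlap with either ground group, and BG replicate 1 lay well above the other BG arrays. Atf3 rose by 3.14 ± 0.89 in BF vs. BG, an 8.83-fold difference (adjusted p = 0.0182), and by 4.13 ± 0.89 in BF vs. FC (adjusted p = 0.0029). These differences ranked 8 and 3 from the top among the 22626 probe sets. The BF vs. BG call was lost when soleus BF replicate 1 or 2, or BG replicate 2 or 3, was left out, with adjusted p-values up to 0.0685, and by ordinary contrasts without moderation (adjusted p = 0.0561), whereas the BF vs. FC call held in every alternative run.

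Egr1, an activator and repressor of growth factor genes that is induced together with Fos in many cell types, stood at 11.52, 12.19 and 8.56 in BF, at 9.16, 7.72 and 7.96 in BG, and at 7.44, 7.51 and 7.63 in FC. BF replicates 1 and 2 were far above all ground arrays, but BF replicate 3 was below BG replicate 1, so that the BF and BG groups overlapped. Egr1 rose by 2.48 ± 0.61 in BF vs. BG (adjusted p = 0.00877) and by 3.23 ± 0.61 in BF vs. FC (adjusted p = 0.00119). Klf10, whose protein represses the inhibitory Smad7 gene of the TGF-β pathway, stood at 8.26, 9.14 and 7.77 in BF, at 7.20, 6.77 and 7.24 in BG, and at 7.38, 7.13 and 7.16 in FC. Its BF arrays lay above all ground arrays, and it rose by 1.32 ± 0.28 in BF vs. BG (adjusted p = 0.00324) and by 1.17 ± 0.28 in BF vs. FC (adjusted p = 0.00579). Without soleus BF replicate 2 these differences were 0.94 and 0.79, which is under 2-fold.

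Myc, a driver of ribosome and metabolic gene transcription, stood at 8.33, 9.01 and 6.89 in BF soleus, at 6.20, 5.26 and 6.08 in BG, and at 5.71, 5.76 and 5.70 in FC. The groups did not overlap, and Myc rose by 2.23 ± 0.35 in BF vs. BG, a 4.70-fold difference (adjusted p = 0.000394), and by 2.35 ± 0.35 in BF vs. FC (adjusted p = 0.000178). Hbegf, the one secreted ligand of the set, stood at 11.47, 12.36 and 10.59 in BF, at 9.36, 7.82 and 8.50 in BG, and at 7.72, 7.67 and 7.42 in FC. Every BF array was more than 2-fold above every ground array. Hbegf rose by 2.91 ± 0.48 in BF vs. BG (adjusted p = 0.000593) and by 3.87 ± 0.48 in BF vs. FC (adjusted p = 4.46e-05), and its second probe set gave 2.89 ± 0.45 and 3.72 ± 0.45. The calls of Myc, Hbegf, Fos and Egr1 in both comparisons held under all 27 alternatives run for each.

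Ier3, an inhibitor of apoptosis in several cell types, differed from the others in the order of its groups. It stood at 7.85, 8.29 and 6.79 in BF, at 6.85, 7.45 and 6.51 in BG, and at 7.77, 7.86 and 7.63 in FC. The difference was 0.71 ± 0.30 in BF vs. BG (adjusted p = 0.0979) and -0.11 ± 0.30 in BF vs. FC (adjusted p = 0.821), with a 95% confidence interval of -0.74 to 0.52. In FC vs. BG it was 0.82 ± 0.30 (unadjusted p = 0.0139, adjusted p = 0.0867), with all FC arrays above all BG arrays, as in 21.9% of all genes.

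**Figure D2:**
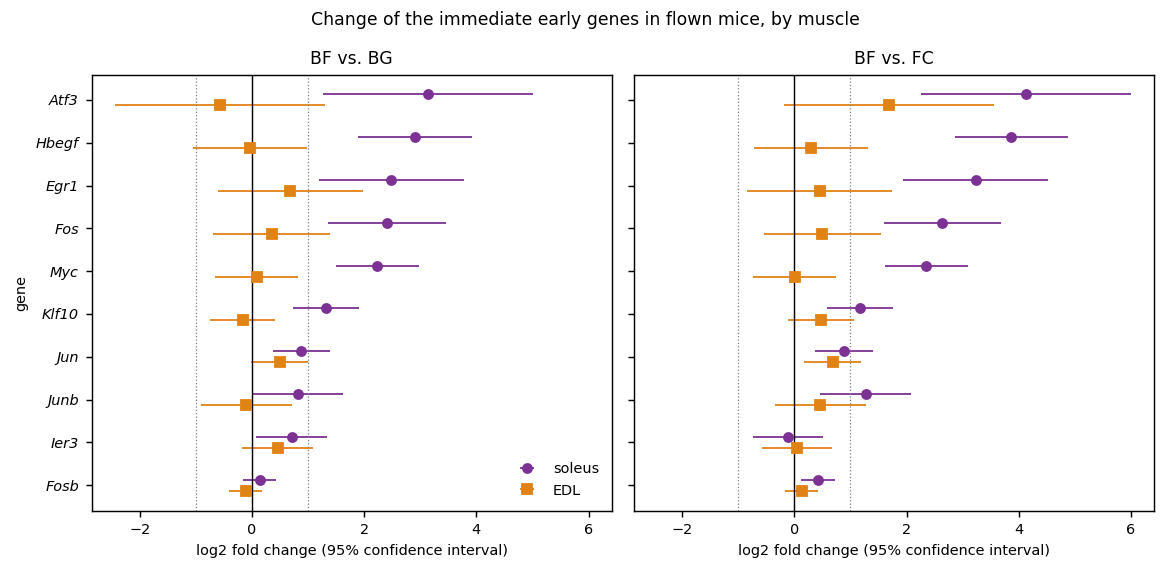
Log2 fold change of each gene in BF vs. BG (left) and BF vs. FC (right), in soleus (circles) and EDL (squares), with 95% confidence intervals from the linear model and dotted lines at 2-fold. Soleus values of Atf3, Hbegf, Egr1, Fos and Myc lie between 2.23 and 4.13, and all EDL intervals in BF vs. BG include 0.

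Compared with FC, the animal facility group, 7 of the 10 genes rose more than 2-fold in soleus, the 6 above and Junb, and 0 fell, where 1.82% of all genes rose and 2.06% fell. The median was 1.81 over the 10 genes and -0.005 over all genes. The count was 5 without soleus BF replicate 2 and 8 without replicate 3. This comparison shares its BF arrays with BF vs. BG and is no independent repeat of it. The BF arrays lay above all FC arrays for 8 genes and above all BG arrays for 6 genes, while 15.7% and 21.1% of all genes were separated in this way.

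Between the ground groups, 0 of the 10 genes were called in soleus FC vs. BG, where 0.331% of all genes rose and 0.29% fell. At an unadjusted p under 0.05, Ier3 alone passed, at less than 2-fold. FC arrays nevertheless lay below all BG arrays for 5 genes, Atf3, Egr1, Fosb, Hbegf and Junb, where 13.7% of all genes were separated in that direction. The differences were -0.99 ± 0.89 for Atf3, -0.96 ± 0.48 for Hbegf and -0.75 ± 0.61 for Egr1, with adjusted p-values of 0.517, 0.216 and 0.468. Soleus FC arrays also differed in a measure of RNA quality, the 3′ minus 5′ difference of the Gapdh control probe sets, which was 0.58 to 0.86 on them and 0.01 to 0.35 on the other arrays. Its part in comparisons with FC was not tested.

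**Figure D3:**
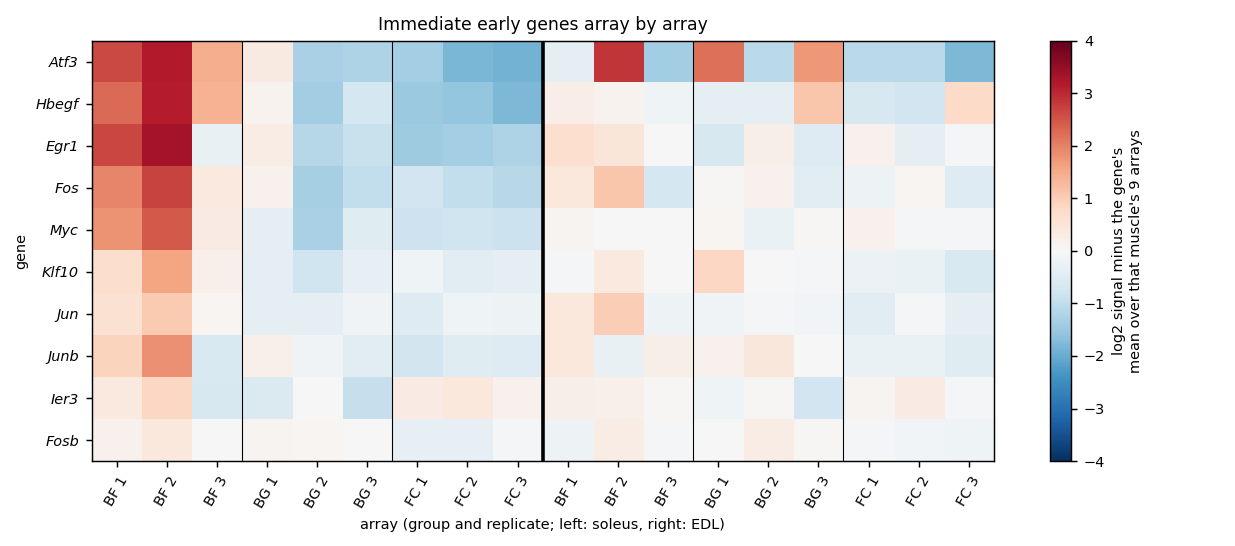
Log2 signal of each gene on each array, minus that gene's mean over the 9 arrays of the muscle (red above, blue below the mean, colour scale from -4 to 4). Soleus BF replicate 2 is the highest soleus array for all 10 genes and BF replicate 3 the lowest BF array, whereas no EDL array is the highest for more than 4 genes.

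The genes varied together from array to array in soleus. Averaged over the 10 genes after each was centred on its mean over 18 arrays, the soleus BF arrays stood at 1.84, 2.48 and 0.66, the BG arrays at 0.39, -0.34 and -0.18, and the FC arrays at -0.30, -0.32 and -0.36. BF replicate 2 was the highest of the 9 soleus arrays for all 10 genes, BF replicate 3 was the lowest BF array for all 10, and BG replicate 1 was the highest BG array for 7. The median SD within a group was 0.88 in BF, 0.49 in BG and 0.15 in FC over the 10 genes, against 0.18, 0.12 and 0.13 over all genes. Thus the spread between mice was wide in BF and BG for these genes and close to that of other genes in FC. The median Pearson r over the 45 gene pairs was 0.87 across the 9 soleus arrays, with 37 pairs over 0.5, and 0.80 after group means were removed. Across the 9 EDL arrays the median r was 0.10, with 10 pairs over 0.5. These correlations are descriptions, and the points share the arrays and the group differences. Fos followed the mean of the other 9 genes most closely over the 18 arrays (r = 0.958) and Ier3 least (r = 0.359).

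Markers of other cell types were judged by an adjusted p under 0.05 at any fold, by which 11.1% of all genes rose and 12.3% fell in soleus BF vs. BG. The summed linear signal of 8 macrophage markers was 2077, 3739 and 1756 on the soleus BF arrays, 1249, 1091 and 1088 in BG, and 1508, 1571 and 1821 in FC. By this sum BF lay above BG and overlapped with FC, and BF replicate 2 was highest, as for the immediate early genes. By the mean log2 signal of the same markers, BF (6.97, 7.54 and 6.98) lay above FC (6.65 to 6.77) as well. Of these 8 markers 1 rose in BF vs. BG, Cd68, a lysosomal protein of phagocytes, by 3.40 ± 0.39 (adjusted p = 3.57e-05), while Adgre1, which defines mouse macrophages, differed by 0.18 ± 0.18 (adjusted p = 0.506). Of 4 measured adipocyte markers 3 rose. The summed signal of the 4 was 9970, 15050 and 7091 in BF, 7634 to 9701 in BG and 6314 to 7654 in FC, so that BF overlapped with both. By the mean log2 signal of the same markers, BF (9.498 to 10.802) lay above BG (7.924 to 8.537) and FC (8.397 to 8.646). By both measures BF replicate 2 was highest and replicate 3 the lowest BF array, as for the immediate early genes. Of 6 neutrophil markers S100a8 alone rose, of 3 Schwann cell markers S100b and Sox10 rose, of 4 satellite cell markers Chrdl2 rose, and of 3 red cell markers Hba-a1 rose and Slc4a1 fell. Of 7 endothelial markers Kdr, Tek, Tie1 and Vwf fell, of 5 fibroblast markers Col1a1 and Col3a1 fell, and of 6 smooth muscle and pericyte markers Rgs5 fell. Counts of 1 gene in a list, as for macrophages and neutrophils, are close to the share of all genes. The part of these differences in the immediate early gene results was not tested. In whole muscle RNA, more cells of a type and more transcript per cell cannot be told apart.

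Fibre type markers matched the muscle labels. The summed signal of 7 slow fibre markers was 90250 to 92700 on the soleus BG and FC arrays, 48100 to 66980 on the soleus BF arrays, and 1284 to 11060 in EDL. The slow markers were thus abundant in every soleus sample and lowest in EDL. By the adjusted p alone, 1 of the 7 slow markers, Casq2, fell in soleus BF vs. BG, where 12.3% of all genes fell. Casq2 was also the 1 slow marker to fall in soleus BF vs. FC, where 16% of all genes fell. Of 8 fast fibre markers Myh4, Actn3, Mylpf and Pvalb rose in soleus BF vs. BG by the adjusted p alone, as 11.1% of all genes did, and soleus BF replicate 2, the array with the most immediate early transcript, had the highest slow and the lowest fast marker signal of the BF arrays.

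In EDL BF vs. BG, 0 of the 10 genes passed a 2-fold change with an unadjusted p under 0.05, the less strict rule used for EDL, where 0.25% of all genes rose and 0.218% fell. The log2 differences ran from -0.57 for Atf3 to 0.68 for Egr1, with a median of 0.02 over the 10 genes and -0.03 over all genes. None passed an unadjusted p of 0.05 at any fold on its main probe set, and the second Jun probe set differed by 0.31 ± 0.13 (unadjusted p = 0.0259, adjusted p = 0.34). Myc, for example, stood at 6.14, 6.01 and 6.01 in BF, at 6.10, 5.75 and 6.06 in BG, and at 6.19, 5.97 and 5.98 in FC. Its difference of 0.08 ± 0.35 in BF vs. BG had a 95% confidence interval of -0.66 to 0.82. Hbegf stood at 8.93, 8.81 and 8.50 in BF, at 8.31, 8.28 and 9.76 in BG, and at 8.03, 7.89 and 9.44 in FC. A single array was high in each ground group, and the difference was -0.04 ± 0.48 in BF vs. BG (adjusted p = 0.985).

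Atf3 was the most variable of the genes in EDL. It stood at 6.96, 10.18 and 5.92 in BF, at 9.51, 6.23 and 9.04 in BG, and at 6.25, 6.24 and 5.52 in FC. Thus 1 BF and 2 BG muscles were far above the rest, and FC was low on all 3 arrays. The EDL FC vs. BG difference of -2.26 ± 0.89 passed the EDL rule (unadjusted p = 0.0207, adjusted p = 0.334), ranked 22625 of 22626 from the top, and had overlapping groups. It was the 1 call among the 10 genes there, where 0.202% of all genes rose and 0.218% fell, and it was lost without EDL BG replicate 1, BG replicate 3 or FC replicate 3. In EDL BF vs. BG, Atf3 passed the rule in the other direction from soleus when EDL BF replicate 2 was left out (-1.82 ± 0.75, unadjusted p = 0.0269, adjusted p = 0.53).

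In EDL BF vs. FC 0 of the 10 genes were called, where 0.347% of all genes rose and 0.387% fell, but all 10 differences were above 0, with a median of 0.46. Jun differed by 0.68 ± 0.24 (unadjusted p = 0.0115, adjusted p = 0.133), from 9.70, 10.27 and 9.08 in BF to 8.87, 9.22 and 8.91 in FC. Klf10 stood at 7.54, 8.01 and 7.61 in BF, above the FC values of 7.38, 7.37 and 7.01, as 9.8% of all genes did, and differed by 0.47 ± 0.28 (unadjusted p = 0.11, adjusted p = 0.416). At an adjusted p under 0.05, whatever the fold, 0 of the 10 genes passed in any EDL comparison, where 0.266% of all genes rose and 0.113% fell in BF vs. BG, 1.02% and 2.52% in BF vs. FC, and 0.0242% and 0.00807% in FC vs. BG. Without EDL BF replicate 3, or without EDL BG replicate 2, Atf3 was called here by the EDL rule (differences of 2.58 and 1.69, adjusted p = 0.163 and 0.24).

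The difference between muscles was tested directly as the soleus log2 fold change minus the EDL log2 fold change. In BF vs. BG it passed for 3 of the 10 genes, where 1.47% of all genes were higher and 1.52% lower in this way. Hbegf responded more in soleus by 2.95 ± 0.68 (adjusted p = 0.0169), Myc by 2.15 ± 0.49 (adjusted p = 0.0164) and Klf10 by 1.49 ± 0.39 (adjusted p = 0.0285). Atf3, at 3.71 ± 1.25 (adjusted p = 0.0696), Fos, at 2.06 ± 0.70 (adjusted p = 0.0716), and Egr1, at 1.80 ± 0.87 (adjusted p = 0.189), did not pass. An alternative fit took same-numbered soleus and EDL of a group as a block, as if from the same mouse, which the sources do not state. With this block Fos and Atf3 passed (adjusted p = 0.00807 and 0.0149). In BF vs. FC, Hbegf (3.58 ± 0.68, adjusted p = 0.0124) and Myc (2.35 ± 0.49, adjusted p = 0.0203) passed, where 0.678% of all genes were higher and 0.686% lower, and with the block Fos passed too (adjusted p = 0.00915). The BF vs. BG count was 7 without soleus BF replicate 3, 2 without soleus BG replicate 2 or 3 or EDL BF or BG replicate 1, and 0 by ordinary contrasts without moderation. In BF vs. FC it was 5 without soleus BF replicate 3, 1 without soleus BF replicate 1, soleus FC replicate 2 or 3 or EDL FC replicate 1, and 0 by ordinary contrasts.

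Between the muscles of ground mice, 0 of the 10 genes were called in FC or in BG, where 1.62% and 2.06% of all genes were higher in soleus and 1.91% and 1.77% lower. The arrays of the muscles nevertheless did not overlap in FC for 7 of the 10 genes, Atf3, Fos, Ier3, Jun and Junb being higher in soleus, as 20.1% of all genes were, and Hbegf and Myc lower, as 17.8% were. In BG Egr1, Fos and Jun lay higher in soleus and Klf10 lower, as 15.9% and 22.2% of all genes did. Atf3 was higher in soleus by 2.33 ± 0.89 in FC, with no overlap (unadjusted p = 0.0174, adjusted p = 0.0892), and by 1.06 ± 0.89 in BG, with overlap (adjusted p = 0.451). With same-numbered muscles of a group as a block, a pairing that the sources do not state, the adjusted p in FC was 0.01. Fos was higher by 0.92 ± 0.50 in FC and by 1.002 ± 0.50 in BG (adjusted p = 0.245 and 0.187), with no overlap in either, and with the block the BG difference passed (adjusted p = 0.0141). Klf10 was lower by 0.82 ± 0.28 in soleus BG than in EDL BG (unadjusted p = 0.00896, adjusted p = 0.054), and its difference in FC was -0.03 ± 0.28. The second Jun probe set was higher in soleus FC by 0.52 ± 0.13 (adjusted p = 0.00993), under 2-fold, and its main probe set by 0.66 ± 0.24 (adjusted p = 0.0764).

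Other genes of the same families and pathways were taken from lists and judged by the adjusted p alone in soleus BF vs. BG. At an adjusted p under 0.05, whatever the fold, 11.1% of all genes rose and 12.3% fell. The lists were chosen with earlier results of these data known, so their counts are descriptions and no independent support. Of 20 other immediate early effectors 11 rose and 0 fell, with a median of 0.90. Pim1, a survival kinase, rose by 1.58 ± 0.34 (adjusted p = 0.00387), Ccn1, a secreted matrix protein, by 1.56 ± 0.45 (adjusted p = 0.0203), Plk2, a stress-induced kinase, by 1.497 ± 0.30 (adjusted p = 0.00241) and Btg2, an inhibitor of proliferation, by 1.32 ± 0.28 (adjusted p = 0.0035). Of 11 other immediate early transcription factors 5 rose and 0 fell, with a median of 0.50. Ier5 rose by 1.36 ± 0.37 (adjusted p = 0.0154), the zinc finger gene Klf6 by 1.09 ± 0.20 (adjusted p = 0.00136), the orphan nuclear receptor gene Nr4a1 by 0.95 ± 0.23 (adjusted p = 0.00712) and Egr2, a relative of Egr1, by 0.83 ± 0.27 (adjusted p = 0.0387). Nr4a1 differed by -0.87 ± 0.23 in EDL (unadjusted p = 0.00128, adjusted p = 0.119), and its soleus minus EDL difference was 1.81 ± 0.32 (adjusted p = 0.00437).

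Of 10 other AP-1 family and small Maf genes 3 rose and 0 fell. Fosl1, a Fos relative typical of sustained stimulation, rose by 1.61 ± 0.28 (adjusted p = 0.000845), Batf by 0.60 ± 0.15 (adjusted p = 0.0101) and Fosl2 by 0.56 ± 0.10 (adjusted p = 0.000938). The median of this list was 0.12, so that most members moved little. Among 12 genes of the integrated stress response around Atf3, 3 rose and 1 fell. Ppp1r15a, which restores translation, rose by 1.38 ± 0.31 (adjusted p = 0.00461), Asns, asparagine synthetase, by 1.07 ± 0.28 (adjusted p = 0.0115) and Atf4, the central factor of the response, by 0.59 ± 0.13 (adjusted p = 0.00421). Cebpb, a partner of Atf4, fell by 0.95 (SE 0.23, adjusted p = 0.00717).

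Regulators upstream of these genes showed no common direction at the transcript level. Of 9 measured serum response, ternary complex and CREB factors 0 rose and 1 fell, Crem, which encodes activators and repressors of CRE genes, with a log2 difference of -1.45 ± 0.24 (adjusted p = 0.000686). Of 11 measured MAP kinase cascade genes 1 rose and 2 fell. Map2k3, an activator of p38, rose by 0.52 ± 0.15 (adjusted p = 0.0233), while Map2k6, which also activates p38, differed by -0.51 ± 0.17 (adjusted p = 0.04) and Mapk9, a JNK, by -0.29 ± 0.09 (adjusted p = 0.0277). The fall of Crem was not particular to flown mice. Crem and Mrtfb fell in soleus FC vs. BG by the adjusted p alone, where 5.78% of all genes rose and 4.03% fell. In soleus BF vs. FC 0 of the 9 factors fell and 1 rose, Creb1, where 9.02% of all genes rose and 16% fell.

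Around the ligand Hbegf, 4 of 10 measured EGF family and ErbB genes rose and 1 fell in soleus BF vs. BG. The ligands Epgn and Btc rose by 0.96 ± 0.17 (adjusted p = 0.00113) and 0.61 ± 0.15 (adjusted p = 0.00984), and the receptor subunit gene Erbb2 by 0.46 ± 0.11 (adjusted p = 0.00656). Adam17, a protease that releases Hbegf from the membrane, differed by -0.88 ± 0.10 (adjusted p = 3.11e-05), so that the ligand and its protease changed in opposite directions. Epgn and Adam17 differed by -0.47 ± 0.17 and -0.41 ± 0.10 in EDL BF vs. BG (unadjusted p = 0.0152 and 0.000853, adjusted p = 0.286 and 0.0956). In soleus BF vs. FC 2 of the 10 genes rose, Btc and Epgn, and 2 fell, Erbb3 and Adam17. The median there was -0.003, and 9.02% of all genes rose and 16% fell. Erbb2 did not pass in BF vs. FC. It rose with Erbb3 in soleus FC vs. BG, where 5.78% of all genes rose and 4.03% fell.

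Of 16 textbook MYC target genes 6 rose and 1 fell in soleus BF vs. BG, with a median of 0.17, and in BF vs. FC 9 rose and 1 fell, where 9.02% of all genes rose and 16% fell. Nop58, a nucleolar ribonucleoprotein, rose by 1.43 ± 0.33 (adjusted p = 0.00604), Srm, spermidine synthase, by 0.95 ± 0.24 (adjusted p = 0.011) and Odc1, ornithine decarboxylase, by 0.75 ± 0.18 (adjusted p = 0.00785). Tfrc, the transferrin receptor, differed by -1.86 ± 0.27 (adjusted p = 0.000239). Odc1 was 0.74 ± 0.18 higher in EDL BF vs. BG (unadjusted p = 0.000782, adjusted p = 0.0929) and its soleus minus EDL difference was 0.01 ± 0.26, whereas Myc itself did not differ in EDL beyond its error. Of 10 partners and corepressors of EGR1 and MYC 1 rose, Mxd3, and 1 fell, Mga. Of 12 measured TGF-β pathway genes around Klf10, Tgif1, a corepressor, rose by 0.67 ± 0.15 (adjusted p = 0.00473) and Tgfb3, a ligand, differed by -0.77 ± 0.19 (adjusted p = 0.00808).

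In EDL BF vs. BG, 0 genes of these 10 lists passed an adjusted p of 0.05 (limma) in either direction, where 0.266% of all genes rose and 0.113% fell. At an unadjusted p under 0.05 the lists held between 0 and 5 genes each. In EDL BF vs. FC, 7 genes of the lists passed the adjusted p, where 1.02% of all genes rose and 2.52% fell, and they are named after their values were seen. Tgif1, a repressor of TGF-beta targets, rose by 0.98 ± 0.15 (adjusted p = 0.00248). Nr4a1 fell by 0.94 ± 0.23 (adjusted p = 0.0273), opposite to its change in soleus BF vs. BG. The kinase genes Map2k6 and Mapk14 fell by 0.96 ± 0.17 and 0.70 ± 0.16, Mrtfa, a coactivator of SRF, by 0.93 ± 0.24, the ligand gene Tgfb3 by 0.80 ± 0.19, and Adam17, a protease that releases EGF family ligands, by 0.51 ± 0.10, with adjusted p-values from 0.00499 to 0.0423.

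**Figure D4:**
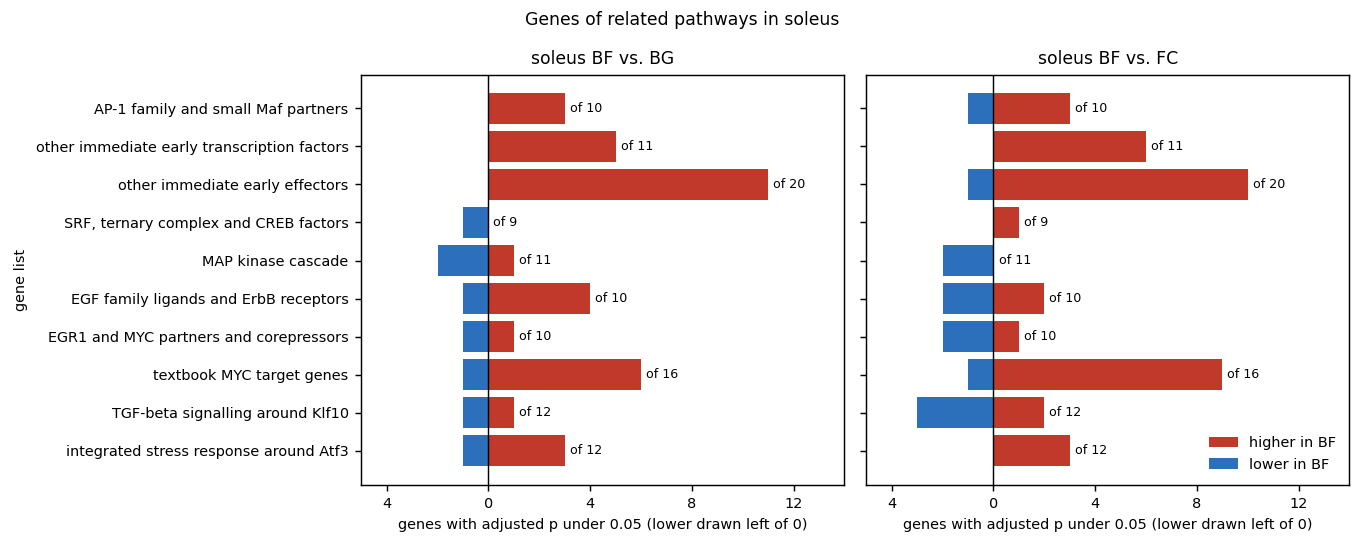
Number of genes with an adjusted p under 0.05 in each list, higher in BF to the right of 0 and lower to the left, with the number measured, for soleus BF vs. BG and BF vs. FC. Of 20 other immediate early effectors 11 are higher in BF vs. BG and 10 in BF vs. FC, while the MAP kinase list holds at most 1 higher gene.

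The genes whose pattern over the 18 arrays was most like the mean of the 10 were Gm13889 (r = 0.971), Hspb8 (r = 0.966), Ppp1r15a (r = 0.965), Pvr (r = 0.963) and Map3k8 (r = 0.959). Because these genes were picked by likeness on the same arrays, a rise in soleus BF and little change in EDL follow from the choice. Their values are descriptions and no separate test. Gm13889 rose by 2.46 in soleus BF vs. BG (adjusted p = 0.000977) and differed by -0.06 in EDL (adjusted p = 0.976). Map3k8, a kinase upstream of ERK, rose by 2.20 in soleus (adjusted p = 0.00237) and differed by 0.27 in EDL (adjusted p = 0.865). Hspb8, a small heat shock protein, rose by 1.16 (adjusted p = 0.0013) and Pvr, a cell adhesion receptor, by 1.19 (adjusted p = 0.00501) in soleus.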

How the data were processed

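The authors processed the arrays in Partek Genomics Suite with RMA (background correction, quantile normalization over all arrays, log2 transformation, median polish) and deposited log2 signals for 22690 probe sets, of which 64 controls were dropped. Gene names came from the platform annotation, in which 20393 probe sets named 1 gene, 691 several and 1606 none, and 20364 matched RefSeq by Entrez number. No read depth exists for arrays, so the number of arrays limits the precision.

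From these values, limma 3.58.1 in R 4.3.3 fitted a one-way model of 6 groups over 18 arrays (12 residual and 5.1 prior degrees of freedom), without a block, and p-values were adjusted by the Benjamini-Hochberg method over the 22626 probe sets of each contrast. Where a gene had several probe sets, the one brightest on average over the arrays stood for it. Following the study's thresholds, a gene was called at more than 2-fold and an adjusted p under 0.05 in soleus and between muscles, and at an unadjusted p under 0.05 in EDL. The sources do not say whether soleus and EDL with the same number came from 1 mouse, and p-values measure only the spread between these arrays. Among non-members, up to 4 genes per list were named by the largest change at an adjusted p under 0.05 in soleus, up to 2 at an unadjusted p under 0.05 in EDL, and the 5 with the most alike pattern. The members and lists were chosen with earlier results of these data known. Alternatives covered probe sets, filter, moderation, weights, normalization, thresholds, a replicate block and leaving out each array. The model was tested on simulated data. Promoter windows came from RefSeq (GRCm38.p6), searched with Python 3.11.15, and figures used matplotlib 3.10.9.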

Additional observations from a re-analysis of the deposited data

Results flagged for a closer look

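The response to flight differed between soleus and EDL, by the test of the difference itself, for 3 genes in BF vs. BG and for 2 of them in BF vs. FC. By ordinary contrasts without moderation 0 genes passed in either. The soleus minus EDL log2 fold change in BF vs. BG was 2.95 for Hbegf, 2.15 for Myc and 1.49 for Klf10, and in BF vs. FC it was 3.58 for Hbegf and 2.35 for Myc. Klf10 did not pass in BF vs. FC, at 0.70 ± 0.39 (limma, adjusted p = 0.425). In EDL FC vs. BG Klf10 differed by -0.64 ± 0.28 (limma, unadjusted p = 0.0345, adjusted p = 0.379). There all FC arrays lay below all BG arrays, as in 8.9% of all genes. All soleus BF arrays of Hbegf and Myc lay above every EDL array of the same gene, whereas soleus BF replicate 3 of Klf10, at 7.77, lay below EDL BF replicate 2, at 8.01, and EDL BG replicate 1, at 8.45.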

How the results depend on the processing

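Leaving out each of the 18 arrays in turn gave 4 to 9 called genes in soleus BF vs. BG, 5 to 8 in soleus BF vs. FC, 0 in soleus FC vs. BG, 0 to 1 in each EDL comparison, 2 to 7 and 1 to 5 in the soleus minus EDL difference for BF vs. BG and BF vs. FC, and 0 to 1 between muscles in FC and in BG. Ordinary contrasts gave 0 for EDL FC vs. BG and for both soleus minus EDL differences. Array weights gave 1 for EDL BF vs. BG, 6 and 5 for the soleus minus EDL differences and 1 between muscles in FC. Judged at the adjusted p, with or without the fold, EDL FC vs. BG held 0 genes, and at the unadjusted p the soleus minus EDL differences held 5 and 4 and the muscles in FC differed in 1. The deviations of same-numbered replicates correlated from -0.133 to 0.297 within a muscle, where 7 of 18 pairs were over 0.1, and from -0.049 to 0.373 across muscles, where 6 of 9 were, among them all 3 FC pairs. Pairing was thus not established over all groups. Across muscles the replicate block treated same-numbered muscles of a group as from the same mouse. With it the soleus minus EDL difference in BF vs. BG held 5 genes, adding Fos and Atf3, and the muscles differed in 1 gene in FC, Atf3, and 1 in BG, Fos, and the other counts stayed within 1.5 times. The cause of these shifts was not tested. No difference changed direction among the called ones. With 3 arrays per group, small differences of dim probe sets such as Fosb are the least certain.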
